A study of Mus musculus with 10 samples.

Results

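The genes Foxc1, Runx1, Ebf1, Ebf2, Ebf3 and Prrx1 encode transcription factors known to maintain the stromal cells of the bone marrow niche or the mesenchyme of the limb. They were taken by name from the table of normalised read counts, in which they are 6 of 15078 genes, and each was compared across all 10 libraries and 3 groups of cells. All 6 had a mean value of at least 10 over the libraries and so entered the tests, as did 13644 genes in all.

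RNA was sequenced from CD51+CD200+ stromal cells that were sorted from the bones of mice after exclusion of CD45+ blood cells, Ter119+ red cells and CD31+ endothelial cells. The graft bone marrow mesenchymal stem cells (graft BM-MSCs, n = 4) came from the marrow of femurs that had been transplanted under the skin of wild-type hosts 5 months earlier. These femurs carried a tamoxifen-inducible Cre driven by the Periostin promoter (Postn Cre-ER) and a Tomato reporter, the hosts received tamoxifen soon after transplantation, and Tomato+ cells were sorted. Steady-state BM-MSCs (n = 3) came from the marrow, and periosteal skeletal stem cells (P-SSCs, n = 3) from the periosteum, of wild-type mice, which the labels give as host at steady state with no treatment. Whether any of these mice also carried a graft is not stated. The Postn promoter is active in several stromal cell types, so Tomato marks descendants of any cell that used it when tamoxifen was given. Genotype, tamoxifen, transplantation and the 5 months that followed it set the graft BM-MSCs apart and cannot be told apart from one another. The study used young adult mice unless it says otherwise, and the age of the steady-state bones at sorting is not given in the sources used here, so age cannot be told apart from the group either. The libraries BM-MSC 2+4 and P-SSC 2+5 each held RNA of 2 mice and were counted as 1 replicate, and p-values measure the spread between libraries.

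Stromal cells of the marrow that make CXCL12 and stem cell factor hold hematopoietic stem cells in their niche. Foxc1, a forkhead factor, and Ebf1 and Ebf3, of the early B cell factor family, are known to keep these CXCL12-rich reticular cells in their niche state, whereas Ebf2 is known from brown fat and immature osteoblast-lineage cells. Runx1 is best known from blood stem cell emergence and binds DNA with the partner Cbfb, and its relative Runx2 is the master factor of osteoblasts. Prrx1 is a paired-related homeobox factor that marks limb bud mesenchyme and the skeletal cells derived from it.

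Depth was 15415421 to 25223295 reads per library, and the value of 1 read was 0.565 to 1.27. The libraries fell into 2 classes by the level of genes with over 65% GC relative to genes of 50% to 60% GC: the 4 graft BM-MSC libraries and P-SSC 4 stood 1.52 to 2.80 above the mean of all libraries on the log2 scale, and the other 5 stood 1.51 to 1.81 below it. For graft BM-MSCs against BM-MSCs this class and the group cannot be told apart. Blood cell markers, led by S100a9 and S100a8, summed to 5975 to 85609 in graft BM-MSCs, 22120 to 53731 in BM-MSCs and 465 to 2242 in P-SSCs. Cxcl12, which marks marrow reticular cells, stood at 560618 to 736781 in graft BM-MSCs and 743661 to 995477 in BM-MSCs, against 3503 to 7751 in P-SSCs. In bulk samples, fewer cells of a type and less RNA per cell cannot be told apart.

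Foxc1, Runx1 and Ebf3 were lowest in P-SSCs, and the 250 bases before the transcription start of each are shown here so that their promoters can be set side by side. They are RefSeq sequences on GRCm38.p6, cut short where an annotated exon begins, and capitals mark any match to 4 short motifs searched on both strands. The motifs were TGTGGT for RUNX factors, TCCC and GGGA set apart by 2 bases of any kind for EBF factors, TGTTTAC for forkhead factors and TAATTA for homeodomain factors. Foxc1 lies at chr13:31806396-31806632 on the plus strand, the inner Runx1 start at chr16:92697330-92697579 on the minus strand, and Ebf3 at chr7:137314446-137314695 on the minus strand.
Foxc1: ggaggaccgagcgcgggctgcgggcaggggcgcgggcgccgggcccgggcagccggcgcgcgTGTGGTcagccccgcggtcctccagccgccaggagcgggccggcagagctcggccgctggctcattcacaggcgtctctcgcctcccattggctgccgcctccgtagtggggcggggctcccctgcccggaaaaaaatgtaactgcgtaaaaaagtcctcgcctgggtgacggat
Runx1 (inner start): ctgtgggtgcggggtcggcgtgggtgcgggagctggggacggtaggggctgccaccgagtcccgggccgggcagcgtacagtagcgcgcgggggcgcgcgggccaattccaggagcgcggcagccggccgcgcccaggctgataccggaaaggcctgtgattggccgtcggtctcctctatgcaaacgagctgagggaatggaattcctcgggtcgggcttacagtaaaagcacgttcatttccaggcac
Ebf3: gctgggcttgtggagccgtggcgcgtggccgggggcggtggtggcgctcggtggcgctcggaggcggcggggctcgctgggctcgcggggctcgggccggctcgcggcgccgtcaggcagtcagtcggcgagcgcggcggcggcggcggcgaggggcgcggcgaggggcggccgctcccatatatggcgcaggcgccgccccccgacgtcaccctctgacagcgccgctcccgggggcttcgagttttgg
The Foxc1 window held 1 RUNX match, 188 bases before the start, and RUNX matches stood in 14% of 32851 promoter windows of the same length. The Runx1 and Ebf3 windows held no match to any of these motifs, and no window of a member held the EBF motif, which stood in 0.779% of all windows. All 3 were rich in G and C (70.8%, 67.6% and 80.0%, in the order above), with 29, 27 and 43 CpG dinucleotides, against medians of 52.4% and 6 over all windows.

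The next sequence is a contrast, the window before the downstream start of Ebf1, whose level did not separate the groups. It lies at chr11:44619978-44620227 on the plus strand.
Ebf1 (downstream start): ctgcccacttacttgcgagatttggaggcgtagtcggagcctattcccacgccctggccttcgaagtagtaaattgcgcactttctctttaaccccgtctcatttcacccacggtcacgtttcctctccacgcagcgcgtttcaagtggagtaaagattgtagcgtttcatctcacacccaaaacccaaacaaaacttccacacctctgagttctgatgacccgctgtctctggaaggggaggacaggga
This window had 52.0% GC and 14 CpG dinucleotides, and it held no match to the 4 motifs. RefSeq gives Runx1 and Ebf1 2 starts each, and values per gene do not say which was used. The outer Runx1 window had 45.6% GC and no match. The outer Ebf1 window held 1 RUNX match, 12 bases before the start, but its first base lay in an annotated exon, so none of it is shown. The Prrx1 window, with 47.6% GC, held 1 homeodomain match 173 bases before its start, a motif found in 4.84% of all windows. A match is a run of letters and not a measured site.

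Comparing graft BM-MSCs with P-SSCs asks how Tomato+ cells of the graft marrow differ from the cells of the periosteum. Foxc1, Runx1 and Ebf3 were higher in graft BM-MSCs, by 97.7-fold, 42.4-fold and 45.9-fold in the means of their values. Without P-SSC 4 the folds of Foxc1 and Runx1 were 642 and 84.2. Ebf1, Ebf2 and Prrx1 did not pass the test. Thus 3 of 6 factors passed an adjusted p under 0.05 (limma on log2(value + 1), Benjamini-Hochberg over all genes tested), where 18.1% of all genes did, 6.08% higher and 12% lower. The groups were fully separated for 4 of 6 factors, Foxc1, Runx1 and Ebf3 higher and Ebf2 lower, against 26.6% of all genes (8.06% higher and 18.5% lower). The median log2 change of the factors was 2.89, and that of all genes was -0.47.

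Comparing graft BM-MSCs with steady-state BM-MSCs asks how graft marrow stroma differs from marrow stroma labelled as steady state. Foxc1 was 14.6-fold and Runx1 7.02-fold higher in graft BM-MSCs, so that 2 of 6 factors passed the test, where 7.67% of all genes did, 2.61% higher and 5.06% lower. Ebf3 did not pass it, although its values did not overlap, and 3 of 6 factors were separated, all higher, against 25% of all genes (10.3% higher and 14.7% lower). The median log2 change was 0.99 over the factors and -0.53 over all genes. After a correction of each library for the GC content of its genes, both calls stood in limma. The log2 change was then 4.50 for Foxc1 (adjusted p = 0.00861) and 3.26 for Runx1 (adjusted p = 0.00777). That correction still leaves the GC class of these libraries joined to their group. With the GC class of the library as a covariate, which only P-SSC 4 and the other P-SSCs can estimate, none of the 6 factors passed, while 40 of all genes did (1169 at an unadjusted p under 0.05), and the log2 change of Foxc1 became -0.17 (adjusted p = 0.956) and that of Runx1 0.78 (adjusted p = 0.856).

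Comparing P-SSCs with BM-MSCs asks how the stroma of both sites differs at steady state. Ebf3, Foxc1 and Runx1 were lower in P-SSCs, by 15.3-fold, 6.67-fold and 6.04-fold (43.8-fold and 12.0-fold for Foxc1 and Runx1 without P-SSC 4), so that 3 of 6 factors passed, where 9.15% of all genes did, 4.57% higher and 4.58% lower. The groups were separated for 5 of 6 factors, 2 higher and 3 lower, against 30.9% of all genes (15.1% higher and 15.8% lower), and Ebf1 was the one that overlapped. The median log2 change was -1.71 over the factors and 0.00 over all genes. The comparisons share groups, so their values are given side by side and are not independent of one another.

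**Figure D1:**
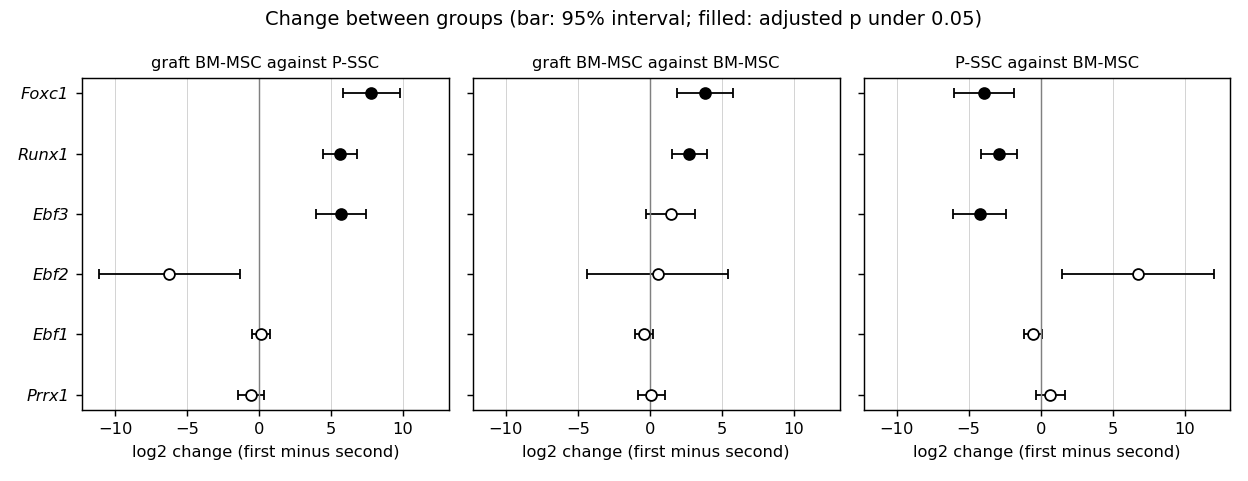
Log2 change of each factor in the 3 comparisons (x axis, first group minus second; bars, 95% intervals from limma). Filled points passed an adjusted p under 0.05: Foxc1 (7.81, 3.85 and -3.96) and Runx1 (5.64, 2.75 and -2.89) did so in every comparison, and Ebf3 in both that involve P-SSCs.

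Foxc1, on chromosome 13 (31806633 to 31812476, plus strand, GRCm38), has a single annotated transcript and no gene that overlaps it. Its normalised read count was 5795, 3242, 5476 and 4028 in graft BM-MSCs 1 to 4. It was 263, 392 and 294 in BM-MSCs 1, 2+4 and 3, and 9.35, 5.10 and 128 in P-SSCs 1, 2+5 and 4. The 3 groups followed each other without overlap, with graft BM-MSCs highest and P-SSCs lowest. Group values were 4635 ± 1206 (SD, n = 4), 316 ± 67.5 (n = 3) and 47.5 ± 69.7 (n = 3). The P-SSC values rested on 9, 4 and 132 reads, so that P-SSC 4, the P-SSC library of the high GC class, gave most of the mean of its group.

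The log2 change of Foxc1 was 7.81 (SE 0.88, adjusted p = 0.000196) in graft BM-MSCs against P-SSCs, 3.85 (SE 0.88, adjusted p = 0.0269) against BM-MSCs, and -3.96 (SE 0.94, adjusted p = 0.0231) in P-SSCs against BM-MSCs. Within libraries of the high GC class, the mean of the graft BM-MSCs was 36.2-fold that of P-SSC 4, and the lowest graft BM-MSC library was 25.3-fold that of P-SSC 4. Within the low class, the BM-MSC mean was 43.8-fold that of the other 2 P-SSC libraries. The difference from BM-MSCs was the least secure: leaving out graft BM-MSC 1, 3 or 4 or any BM-MSC library ended the call (adjusted p = 0.0508 to 0.0964), as did edgeR on the recovered reads (0.0617). In P-SSCs against BM-MSCs the call was lost without any BM-MSC library or without P-SSC 1 or 2+5 (0.0675 to 0.0934), in edgeR (0.145) and in a fit of both groups alone (0.0973), whereas without P-SSC 4 the log2 change was -5.30 (adjusted p = 0.000166).

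Runx1, on chromosome 16 (92601466 to 92826149, minus strand), followed the same order. Its value was 2504, 2596, 5194 and 2562 in graft BM-MSCs 1 to 4, with graft BM-MSC 3 well above the other 3. It was 459.5, 378 and 537 in BM-MSCs 1, 2+4 and 3, and 34.3, 42.0 and 151 in P-SSCs 1, 2+5 and 4. No group overlapped another, and P-SSC 4 was again the highest P-SSC library. The log2 change was 5.64 (SE 0.54, adjusted p = 7.9e-05) in graft BM-MSCs against P-SSCs, 2.75 (SE 0.54, adjusted p = 0.0139) against BM-MSCs, and -2.89 (SE 0.57, adjusted p = 0.00834) in P-SSCs against BM-MSCs.

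Runx1 is also made by blood cells, whose markers were uneven between libraries. Graft BM-MSC 3 had the highest Runx1 value and the highest sum of blood cell markers, 85609 against 5975 to 10941 in the other graft BM-MSC libraries, and its Ptprc (the pan-leukocyte marker CD45) was 196. Without graft BM-MSC 3 the log2 change of Runx1 was 2.49 (adjusted p = 0.0328) against BM-MSCs and 5.38 (adjusted p = 0.000383) against P-SSCs. The other 3 graft BM-MSC libraries were above every BM-MSC library in Runx1 and below every one in the sum of blood cell markers. Not every marker in that sum was lower. Kit was at 218 and 1883 in graft BM-MSCs 1 and 4 and at 0 in 2 and 3, against 63.1 to 89.6 in BM-MSCs. Spi1 was at 196 in graft BM-MSC 2 and at 0 in 1 and 4, against 46.4 to 160 in BM-MSCs. The part of blood cells in the Runx1 values was not tested. Leaving out BM-MSC 1 or BM-MSC 2+4 ended the call against BM-MSCs (adjusted p = 0.0516 and 0.0645). Within the high GC class the graft BM-MSC mean was 21.3-fold that of P-SSC 4, and within the low class the BM-MSC mean was 12.0-fold that of the other P-SSCs.

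Among the relatives of these factors, Runx2, the osteoblast factor, was at 1868, 823, 1676 and 977 in graft BM-MSCs 1 to 4. It was 539.9, 419.7 and 697 in BM-MSCs and 31.2, 30.6 and 26.2 in P-SSCs. It rose in graft BM-MSCs over P-SSCs (log2 change 5.38, adjusted p = 4.6e-05) and was lower in P-SSCs than in BM-MSCs (-4.16, adjusted p = 0.000396). Its change between graft and steady-state BM-MSCs, 1.22, did not pass the test (adjusted p = 0.135). Runx3, which acts in T cells and cartilage, had no reads in any of the 3 P-SSC libraries and normalised values of 27 to 495 in graft BM-MSCs. The graft BM-MSC mean was at least 76.1-fold higher when the floor of 3 reads in a P-SSC library stands for the P-SSC level. The difference passed the test in limma (adjusted p = 0.00284).

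Per kb of exon, Runx1 had a mean of 267 ± 110 and Runx2 of 151 ± 58.1 normalised reads per kb in graft BM-MSCs, with overlapping ranges and Runx1 higher in 3 of 4 libraries. In BM-MSCs Runx2 was higher in each of the 3 libraries (62.5 ± 15.8 against 38.1 ± 6.61). The other relatives were low or patchy. Foxc2, the closest relative of Foxc1 and a factor of lymphatic vessels, was at 0 in graft BM-MSCs 1 and 4 and at 177 and 121 in the others. Prrx2 was at 1189 in P-SSC 4 and 43.6 and 51.0 in the other P-SSCs, at 0 in every BM-MSC library, and at 0 to 167 in graft BM-MSCs. Ebf4 did not exceed 221 in any library. Of these 5 relatives, 2 rose and 0 fell in graft BM-MSCs against P-SSCs (18.1% of all genes passed there), 0 passed against BM-MSCs (7.67% of all genes), and Runx2 alone fell in P-SSCs against BM-MSCs (9.15% of all genes passed).

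Among the Ebf factors, Ebf3 (chromosome 7, 137193673 to 137314445, minus strand) was a gene of the marrow groups. It was at 721, 1914, 1567 and 565 in graft BM-MSCs 1 to 4 and at 551, 303 and 341 in BM-MSCs 1, 2+4 and 3. It was at 31.2, 5.10 and 41.7 in P-SSCs 1, 2+5 and 4, which are 30, 4 and 43 reads. Every marrow library was above every P-SSC library, while the lowest graft BM-MSC library was close to the highest BM-MSC library. The log2 change was 5.70 (SE 0.77, adjusted p = 0.000571) in graft BM-MSCs against P-SSCs and -4.25 (SE 0.83, adjusted p = 0.0073) in P-SSCs against BM-MSCs. Between graft and steady-state BM-MSCs it was 1.45 (95% interval -0.26 to 3.16, adjusted p = 0.269), which did not pass the test and became -0.16 with the GC class as a covariate. Both calls stood when any 1 library was left out, and the fold between groups was 28.6 within the high GC class and 22 within the low class. A block for the replicate numbers of the labels ended both calls in limma (adjusted p = 0.0638 and 0.249). With the block and a GC correction they were lost as well (adjusted p = 0.0576 and 0.252).

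Ebf2 (chromosome 14, 67233292 to 67430918, plus strand) had the opposite order. Its value was 5702, 3397 and 2283 in P-SSCs 1, 2+5 and 4. It was 136, 252 and 0 in BM-MSCs 1, 2+4 and 3, and 0, 123, 107 and 369 in graft BM-MSCs 1 to 4. Every P-SSC library was above every marrow library, and the mean of the P-SSCs was 29.4-fold that of the BM-MSCs and 25.3-fold that of the graft BM-MSCs. These folds rested on few libraries: the former was 55.9 without BM-MSC 2+4 and 19.6 without BM-MSC 3, and the latter was 49.5 without graft BM-MSC 4. BM-MSC 3 and graft BM-MSC 1 had no Ebf2 read, which allows up to 0.160 and 0.119 ppm of the reads when 3 reads are taken as the floor, for counting error alone.

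Neither difference of Ebf2 passed the test. The log2 change was -6.23 (95% interval -11.15 to -1.31, adjusted p = 0.0786) in graft BM-MSCs against P-SSCs and 6.76 (1.5 to 12.02, adjusted p = 0.123) in P-SSCs against BM-MSCs. With a pseudocount of 5 in place of 1, which brings the libraries at 0 closer to the rest, both passed (-5.62, adjusted p = 0.0267, and 5.97, adjusted p = 0.0429). The former also passed without BM-MSC 3 (adjusted p = 0.0424) and the latter without graft BM-MSC 1 (0.048). Over all libraries left out in turn, the former ran from -7.22 to -4.38 with an adjusted p of 0.0424 to 0.228, and the latter from 4.25 to 8.24 with 0.048 to 0.397. With the GC class as a covariate the adjusted p was 0.486 and 0.224. Between graft and steady-state BM-MSCs Ebf2 overlapped, with a log2 change of 0.53 (95% interval -4.39 to 5.45, adjusted p = 0.911).

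Ebf1 (chromosome 11, 44617317 to 45008091, plus strand), which also directs B cell development, was high in every library. It was at 3299, 3651, 4245 and 2889 in graft BM-MSCs 1 to 4, at 4063, 5073 and 4593 in BM-MSCs 1, 2+4 and 3, and at 4928, 2848 and 2227 in P-SSCs 1, 2+5 and 4. The groups overlapped in all 3 comparisons. The log2 change was 0.15 (95% interval -0.47 to 0.76) in graft BM-MSCs against P-SSCs, -0.39 (-1.0 to 0.23) against BM-MSCs, and -0.53 (-1.19 to 0.12) in P-SSCs against BM-MSCs, with adjusted p = 0.743, 0.408 and 0.424. The widest of these intervals reached 1.19 on the log2 scale. B cell markers were low beside it: 4 of them, led by Cd79a, summed to 112 to 230 in graft BM-MSCs, 90.9 to 291 in BM-MSCs and 14.5 to 39.7 in P-SSCs, where Cd79b and Vpreb3 were at 0 in every library.

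**Figure D2:**
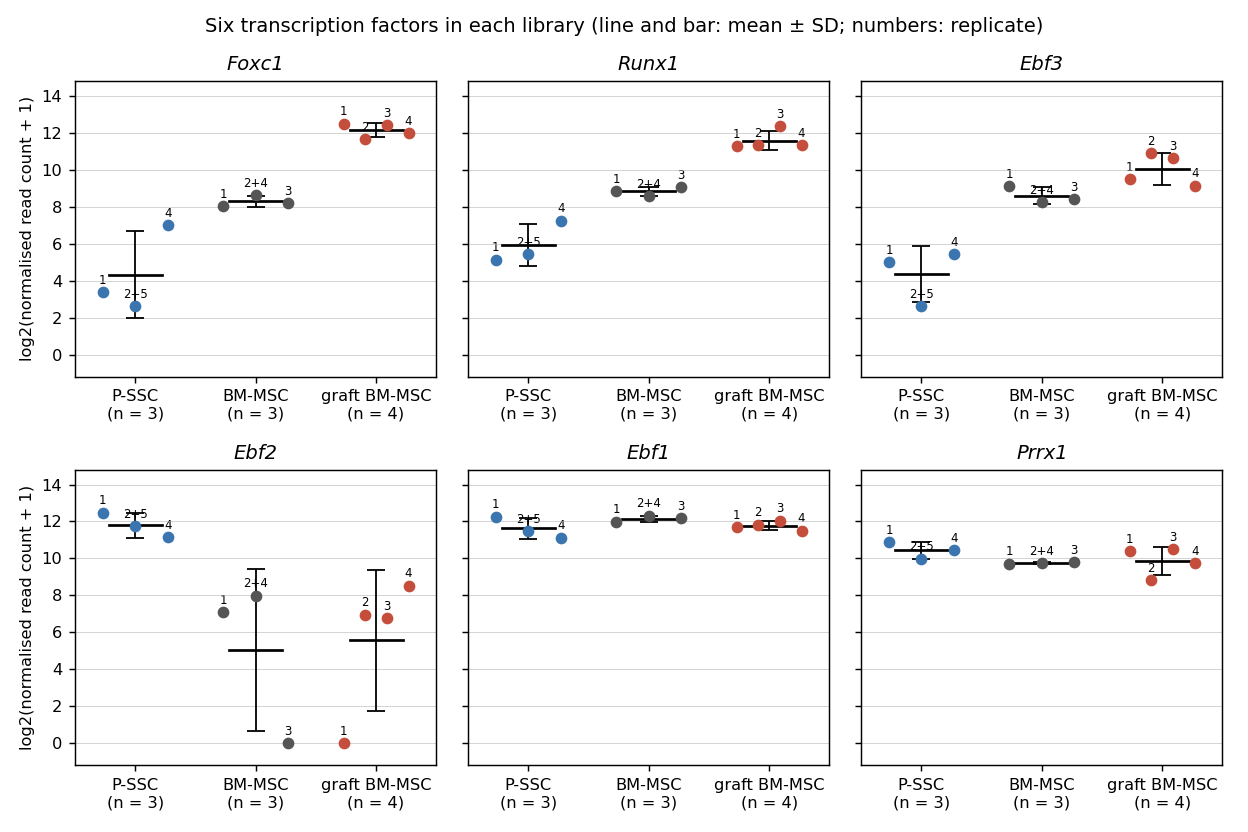
Value of each factor in each library as log2(normalised read count + 1) (y axis), with P-SSCs, BM-MSCs and graft BM-MSCs along the x axis. Each point is a library with its replicate number, and line and bar give mean and SD. Foxc1 and Runx1 step up from P-SSCs to BM-MSCs to graft BM-MSCs without overlap, Ebf2 is highest in P-SSCs, and Ebf1 overlaps throughout.

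The make-up of the Ebf family was then described by the share of each gene. Set per kb of exon so that the genes can be compared, Ebf2 made up 61.8%, 62.6% and 58.6% of the summed level of Ebf1, Ebf2 and Ebf3 in P-SSCs 1, 2+5 and 4, and Ebf1 made up nearly all of the rest (37.3% to 40.6%). In BM-MSCs Ebf1 made up 84.0% to 92.7%, Ebf3 5.57% to 12.1% and Ebf2 0% to 6.18%. In graft BM-MSCs Ebf1 made up 62.4% to 81.2%, Ebf3 14.9% to 34.6% and Ebf2 0% to 13.0%. The share of Ebf3 was thus higher in every graft BM-MSC library than in any BM-MSC library, and that of Ebf1 was lower.

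The mean share of Ebf3 was 23.9% ± 8.83 in graft BM-MSCs (n = 4), 8.30% ± 3.36 in BM-MSCs (n = 3) and 0.376% ± 0.381 in P-SSCs (n = 3). It differed by 15.6 percentage points between graft and steady-state BM-MSCs (two-sided exact permutation test, p = 0.0571, adjusted p = 0.103 over 9 comparisons). That p is the smallest that 4 against 3 libraries allow, and 3 against 3 cannot go below 0.1, so no share could pass 0.05. Of the 9 comparisons, 8 reached the smallest p their design allows, and only the share of Ebf2 between graft and steady-state BM-MSCs overlapped (difference 1.23 percentage points, exact permutation p = 0.971). The smallest p means only that the groups did not overlap. The shares of a library sum to a whole, so these comparisons are not independent of one another. The summed Ebf level was 411 to 620.3 normalised reads per kb in graft BM-MSCs, 496 to 589 in BM-MSCs and 562 to 1332 in P-SSCs and the ranges of the groups overlapped.

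**Figure D3:**
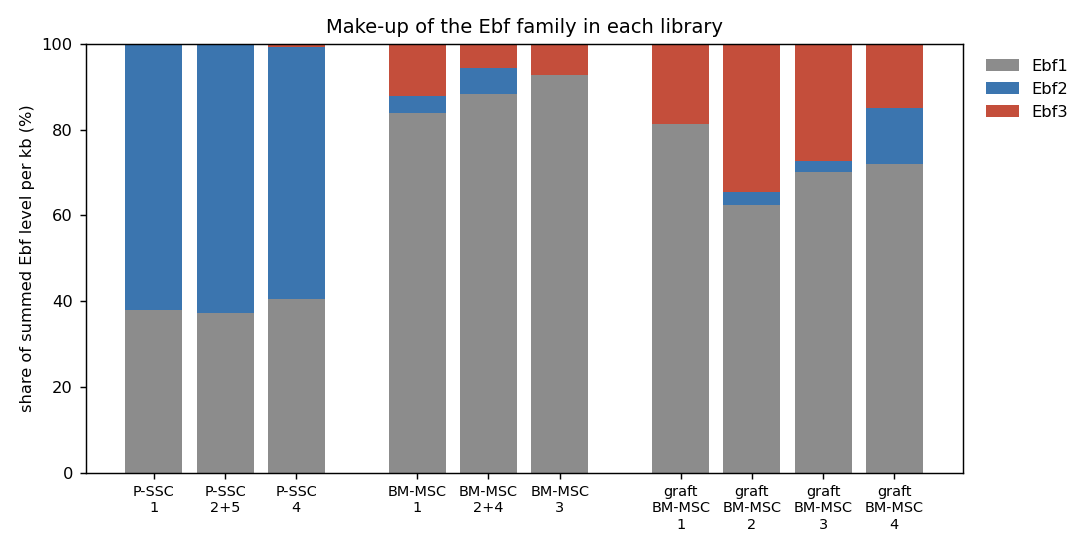
Share of Ebf1, Ebf2 and Ebf3 in the summed Ebf level per kb (y axis, percent) in each library (x axis), with bars stacked to 100%. Ebf2 fills 58.6% to 62.6% of each P-SSC bar, and Ebf3 takes 14.9% to 34.6% of the graft BM-MSC bars and 5.57% to 12.1% of the BM-MSC bars.

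Prrx1 (chromosome 1, 163245119 to 163313710, minus strand) was present in every library. It was at 1329.9, 455, 1448 and 847 in graft BM-MSCs 1 to 4, at 839, 862 and 884 in BM-MSCs 1, 2+4 and 3, and at 1875, 1010.2 and 1384 in P-SSCs 1, 2+5 and 4. The BM-MSC libraries were nearly alike and all below the P-SSCs, and the graft BM-MSCs spread over both. The log2 change was 0.68 (95% interval -0.31 to 1.67, adjusted p = 0.561) in P-SSCs against BM-MSCs, -0.57 (-1.5 to 0.36, adjusted p = 0.378) in graft BM-MSCs against P-SSCs and 0.11 (-0.82 to 1.04, adjusted p = 0.902) against BM-MSCs. No comparison passed the test.

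The factors were ranked by mean level per kb of exon. In P-SSCs the order was Ebf2 (548), Ebf1 (342), Prrx1 (129), Foxc1 (8.12), Runx1 (6.31) and Ebf3 (2.82). Ebf2 stood above Ebf1 and Ebf1 above Prrx1 in all 3 P-SSC libraries, although the ranges of Ebf2 and Ebf1 overlapped, and the last 3 overlapped one another. In BM-MSCs it was Ebf1 (469), Prrx1 (77.8), Foxc1 (54.2), Ebf3 (43.2), Runx1 (38.1) and Ebf2 (18.7), where Ebf1 and Prrx1 each stood clear of the next and the rest overlapped their neighbours.

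In graft BM-MSCs the order was Foxc1 (793), Ebf1 (361), Runx1 (267), Ebf3 (129), Prrx1 (92.2) and Ebf2 (21.6). Foxc1 stood clear of Ebf1, and Runx1 clear of Ebf3. The ranges of Ebf1 and Runx1 overlapped, though Ebf1 was higher in each of the 4 libraries, and Ebf3 and Prrx1 could not be ordered, with Ebf3 higher in 2 of 4. Foxc1 was the highest of the 6 per kb of exon in every graft BM-MSC library, Ebf1 in every BM-MSC library and Ebf2 in every P-SSC library. Of the 6 genes, Foxc1 had the highest GC content (55.9%) and Ebf1 the lowest (43.1%). Every graft BM-MSC library was of the high GC class and every BM-MSC library of the low class. The switch of the top gene between these groups therefore cannot be told apart from the GC class, and the part of GC content in the order was not tested. The order also depends in part on the length used. Per kb of the longest transcript, a length tried after seeing the data, Ebf1 and Ebf2 were again highest in every BM-MSC and P-SSC library, but Foxc1 was highest in 3 of 4 graft BM-MSC libraries and Ebf1 in the other. On that length Runx1 rather than Ebf1 was the higher in graft BM-MSC 3, Foxc1 (54.2) stood below Ebf3 (79.8) and Runx1 (78.1) in BM-MSCs, and Runx1 (12.9) above Foxc1 (8.12) in P-SSCs.

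Of 11 listed cofactors of the Runx, Ebf and Prrx families, 1 rose and 1 fell in graft BM-MSCs against P-SSCs, 0 passed against BM-MSCs, and 1 rose and 1 fell in P-SSCs against BM-MSCs. Of all genes, 18.1%, 7.67% and 9.15% passed in these comparisons. Tle2, a Groucho corepressor that Runx factors recruit, was at 978 to 1906 in graft BM-MSCs, 656 to 1277 in BM-MSCs and 3.82 to 144 in P-SSCs. It rose in graft BM-MSCs over P-SSCs (log2 change 5.09, adjusted p = 0.00434) and was lower in P-SSCs than in BM-MSCs (-4.71, adjusted p = 0.0147). Zfp423, a zinc finger protein that binds Ebf factors, was higher in P-SSCs (1404 to 2025) than in BM-MSCs (59.1 to 641), with a log2 change of 2.86 (adjusted p = 0.0427), and stood at 303 to 942 in graft BM-MSCs. Tle4, a relative of Tle2, was lower in graft BM-MSCs (0 to 7.59) than in P-SSCs (28.0 to 128), with a log2 change of -4.93 (adjusted p = 0.0329). Tle4 was named after its values were seen. The call of Zfp423 was lost on leaving out any P-SSC library, and that of Tle4 in edgeR, in DESeq2 and without graft BM-MSC 1, 3 or 4.

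The remaining cofactors did not pass a test in any comparison. Zfp521, a relative of Zfp423, was at 679 to 1780.3 in P-SSCs, 91.7 to 426 in BM-MSCs and 97.0 to 658 in graft BM-MSCs. Meis1, a homeobox partner, was at 1.73 to 922 in graft BM-MSCs, and its groups overlapped. Cbfb, the binding partner of Runx1 and Runx2, was named after its values were seen: it was at 604, 11.8, 245 and 841 in graft BM-MSCs 1 to 4, at 58.0 to 84.6 in BM-MSCs and at 44.6 to 421 in P-SSCs, and its log2 change against BM-MSCs was 1.46 (95% interval -1.62 to 4.55, adjusted p = 0.535).

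The 8 listed genes of CXCL12-rich reticular cells, which mark the cells that Foxc1, Ebf1 and Ebf3 are known to maintain, all rose in graft BM-MSCs against P-SSCs, and 7 of 8 were lower in P-SSCs than in BM-MSCs, with Csf1 the exception (adjusted p = 0.0674). Of all genes, 18.1% passed in the former comparison and 9.15% in the latter. None of the 8 passed between graft and steady-state BM-MSCs in limma at this threshold, where Foxc1, Runx1 and 7.67% of all genes did. Even so, Kitl (2323 to 3825 against 4131 to 6770) and Cxcl12 (560618 to 736781 against 743661 to 995477) were lower in graft BM-MSCs without overlap. Csf1 (12031 to 17032 against 8468 to 11941) was higher without overlap, and the rest of the 8 overlapped. The groups were separated for 25% of all genes. The median log2 change of the 8 there was -0.17, against -0.53 over all genes.

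Other transcription factors of the skeletal lineages gave a mixed picture. Of 5 osteoblast factors, 2 rose in graft BM-MSCs against P-SSCs: Sp7 (log2 change 3.02, adjusted p = 0.00478) and Dlx5 (1.19, adjusted p = 0.032). The share of all genes that passed was 18.1% there, 7.67% in graft BM-MSCs against BM-MSCs and 9.15% in P-SSCs against BM-MSCs. Dlx5 was at 540.3 to 1004 in graft BM-MSCs and 1505 to 2162 in BM-MSCs and was the only one of the 5 to pass there, with a fall of 1.28 (adjusted p = 0.0435). Sp7, which acts after Runx2 in osteoblasts, was at 316 to 1495 in graft BM-MSCs and 1888 to 2663 in BM-MSCs (log2 change -1.49, adjusted p = 0.143). In P-SSCs against BM-MSCs Sp7 (-4.51, adjusted p = 0.00086) and Dlx5 (-2.46, adjusted p = 0.00112) fell, and Atf4, a stress and osteoblast factor, rose (log2 change 1.10, adjusted p = 0.0203). The calls of Dlx5 between graft and steady-state BM-MSCs and of Atf4 were lost in edgeR and on leaving out any BM-MSC library, and that of Dlx5 against P-SSCs on leaving out any BM-MSC library.

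Of 5 adipocyte factors, Pparg (log2 change 5.44, adjusted p = 0.00014), Cebpa (5.97, adjusted p = 0.00409) and Klf15 (4.66, adjusted p = 0.0255) rose in graft BM-MSCs against P-SSCs, and Srebf1, a lipid synthesis factor, fell (-1.27, adjusted p = 0.00157). The call of Klf15 was lost in edgeR and without graft BM-MSC 3, P-SSC 1 or P-SSC 2+5. None of the 5 passed against BM-MSCs, and Pparg alone fell in P-SSCs against BM-MSCs (-4.62, adjusted p = 0.000724). Beside this list and the next, 18.1% of all genes passed in graft BM-MSCs against P-SSCs, 7.67% against BM-MSCs and 9.15% in P-SSCs against BM-MSCs. Of 12 limb mesenchyme factors, 8 were in the table, and Snai2, a zinc finger factor of migrating mesenchyme, was the only one to pass. It was at 2876 to 8593 in graft BM-MSCs, 2478 to 5556 in BM-MSCs and 75.2 to 227 in P-SSCs, which gave 5.21 (adjusted p = 7.7e-05) in graft BM-MSCs against P-SSCs and -4.64 (adjusted p = 0.000309) in P-SSCs against BM-MSCs. Prrx1, the marker of this lineage, did not pass in either comparison. Shox2 was at 71.7 to 733 in graft BM-MSCs and 40.1 to 67.1 in BM-MSCs. Twist1 was at 191 to 329 in graft BM-MSCs and 28.2 to 82.8 in BM-MSCs. Both were thus higher in graft BM-MSCs without overlap, as were Twist2 and Pitx1. Snai2, Msx1, Tbx4 and Tbx18 overlapped there. The median log2 change of the 8 against BM-MSCs was 2.27, and none passed the test. Msx2, Lhx9, Hoxa11 and Hoxd10 were not analysed here.

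**Figure D4:**
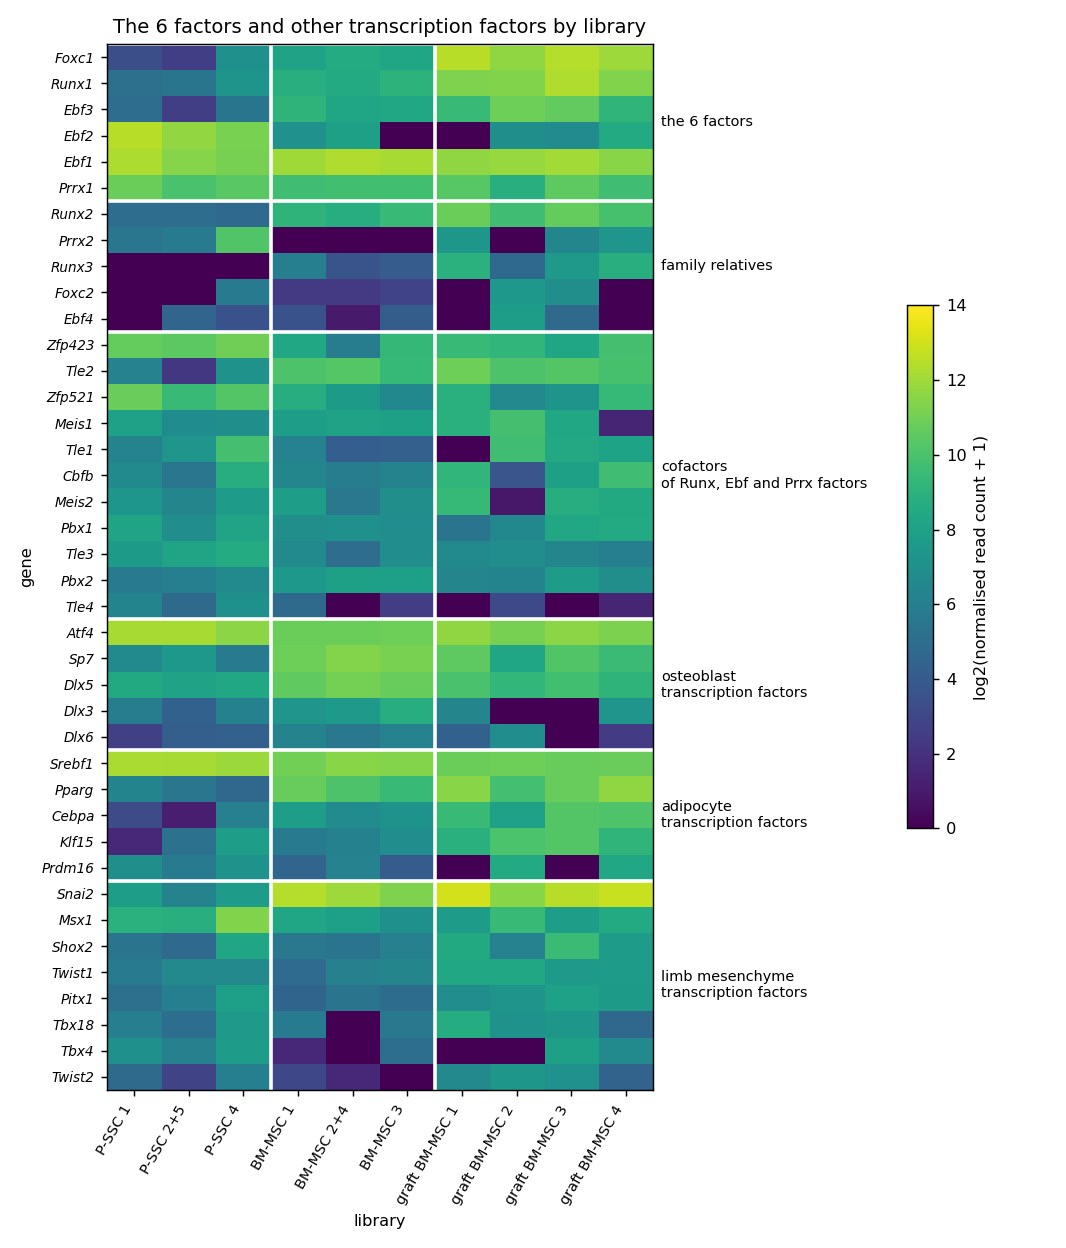
Level of the 6 factors and of 5 lists of other transcription factors and cofactors (rows) in each library (columns), as log2(normalised read count + 1), with white lines between groups and lists. Foxc1, Runx1 and Ebf3 are darker in the P-SSC columns than in the graft BM-MSC columns, as are Runx2 and Snai2. Ebf2 and Zfp423 are brightest in the P-SSC columns.

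The genes whose log2 values over the 10 libraries were most like each factor, among 9540 genes with a mean of at least 100, describe the same patterns. For Foxc1 these were Bmp6 (Pearson r = 0.99), Smagp (0.99) and Tmem200b (0.99), and for Runx1 they were Smoc1 (0.99), Bmp6 (0.99) and Smagp (0.99). For Ebf3 they were Nme4 (0.99), Akr1c19 (0.98) and Gm4951 (0.97), and for Ebf2 Dlg4 (0.97), Rab7b (0.93) and Car11 (0.92). For Ebf1 they were C4b (0.89), Lpin1 (0.87) and Oas1a (0.86), and for Prrx1 Rab1a (0.91), Tbx15 (0.91) and Ank2 (0.90). Foxc1 correlated with Runx1 at 0.98 and with Ebf3 at 0.92. These libraries fall into 3 groups and share the split by GC class, and no p was computed.

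Markers of other cell types were uneven between the groups. Endothelial markers were at 0 in every graft BM-MSC library (Cdh5, Emcn and Tek), summed to 24.3 to 82.5 in BM-MSCs, and to 3269 to 6871 in P-SSCs, where Tek made up nearly all of the sum and Emcn was at 0. The sort removed CD31+ cells, and Pecam1, which encodes CD31, was not analysed here. The 5 cartilage markers, led by Col2a1, summed to 33075 to 71665 in BM-MSCs, 656 to 3884 in graft BM-MSCs and 200 to 1693 in P-SSCs. Acan, Col9a1 and Matn3 were at 0 in every graft BM-MSC library. Sox9 went the other way, at 114 to 933 in graft BM-MSCs, 23.2 to 65.8 in BM-MSCs and 25.5 to 317 in P-SSCs. Red cell markers summed to 52085 to 183934 in BM-MSCs, 1401 to 25935 in graft BM-MSCs and 182 to 1203 in P-SSCs, and the 4 smooth muscle and pericyte markers to 9955 to 27686 in P-SSCs, 921 to 7859 in BM-MSCs and 95.7 to 3554 in graft BM-MSCs. Acta2 made up most of the P-SSC sum, whereas Rgs5, a pericyte marker, stood at 86.2 to 128 in P-SSCs, 266 to 1437 in BM-MSCs and 55.4 to 559 in graft BM-MSCs. The part of these cells in the values of the factors was not tested.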

How the data were processed

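RNA sequencing values were analysed for 10 libraries: 4 of graft BM-MSCs, 3 of BM-MSCs, 3 of P-SSCs. The deposited signal values are read counts that the authors divided by a size factor of each library. The methods give STAR and GRCm38, and the submitters' processing notes give cutadapt 1.15, STAR 2.5, featureCounts (Subread 1.4.6), DESeq2 1.26.0 and GRCm39; the strand setting is not given in the sources used here. Values were whole multiples of the value of 1 read in 100% of cases (tolerance 0.01 reads), which gave the reads and the depth of 15415421 to 25223295 per library. Coordinates, exon lengths and GC content came from GENCODE M21 (GRCm38) by Ensembl ID (15052 of 15078 matched). Ebf1, Ebf2, Ebf3, Prrx1 and Runx1 overlap annotated antisense genes, with which unstranded counting would share reads. For Ebf1 the antisense gene is in the table.

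Samples were grouped by their labels. Log2(value + 1) was fitted with limma 3.58.1 (R 4.3.3), 1 mean per group over all 10 libraries with a variance trend, two-sided, for 13644 genes with a mean of at least 10, and called at a Benjamini-Hochberg adjusted p under 0.05. Fold changes of low genes are understated on this scale. Shares were tested by exact permutation (SciPy 1.17.1). edgeR 4.0.16 and DESeq2 1.42.0 on the recovered reads were alternatives, as were other pseudocounts, filters, scalings, GC corrections, a replicate block, fits of both groups alone and leaving out each library. The fits were tested on simulated data. Members and lists were chosen with earlier results of these data known, and some listed genes are not reported here. Values are given for at most 4 genes of a list, those with the highest mean, or for all of a list of 5 or fewer. Tle4, Cbfb, Csf1, Kitl, Kit, Spi1 and Ptprc fell outside this rule and were named after their values were seen. A floor of 3 reads reflects counting error alone, since reads need not be independent molecules. RefSeq promoter windows were matched by symbol for 5 of 6 factors.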

Additional observations from a re-analysis of the deposited data

Results flagged for a closer look

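Dixon's 95% limit for 4 samples is a gap of 0.829 of the range. In 5 of 45 sets of 4 graft BM-MSC values, 1 library stood farther from the rest. The limit flags about 1 set in 20 when values are normally spread and sets are independent. These values were not on a log scale, and some sums hold genes that were also tested alone. The number flagged therefore cannot be set against that rate. Runx1 was at 5194 in graft BM-MSC 3, against 2504 to 2596 in the other 3. The same library had the highest sum of blood cell markers, 85609, and of genes of CXCL12-rich reticular cells, 865397. The part of the blood cell markers in the Runx1 value was not tested. Graft BM-MSC 4 had the highest Vcam1 (46954), an adhesion molecule of marrow stroma, and the highest sum of adipocyte markers (5489).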

How the results depend on the processing

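The number of factors called in graft BM-MSCs against P-SSCs, BM-MSCs, and in P-SSCs against BM-MSCs was 3, 2 and 3. It was the same with the GC correction alone. It was 1, 0 and 0 with a replicate block, 2, 0 and 0 with the block and a GC correction, 3, 1 and 2 in edgeR, and 0 for graft BM-MSCs against BM-MSCs with the GC class as a covariate. Leaving out 1 library gave 3 to 4, 0 to 2 and 2 to 4. The block used the numbers of the labels, with joined numbers (2+4 and 2+5) as levels of their own. Deviations of same-numbered libraries correlated at -0.019 to 0.030, those of BM-MSC 2+4 and P-SSC 2+5 at 0.081, and the sources used here do not say whether a number marks a shared mouse, so the samples were not taken as paired. All genes called numbered 2464, 1046 and 1248, against 269, 3 and 54 with the block, 323, 3 and 66 with the block and GC correction, 1531, 316 and 619 in edgeR, 1081 and 40 in both graft comparisons with the GC class, 1947 in DESeq2 for graft BM-MSCs against BM-MSCs, and 1583 to 3005, 476 to 1584 and 917 to 1495 on leaving out 1 library. Of those called in graft BM-MSCs against P-SSCs, 830 were higher and 1634 lower, and after quantile normalization 1247 and 1241; against BM-MSCs 356 and 690 became 588 and 435. The median change of all genes moved from -0.47 and -0.53 to -0.02 and -0.17.

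Signs turned only among changes that were not called, apart from Foxc1, which with the GC class became -0.17 in graft BM-MSCs against BM-MSCs, where Ebf3 became -0.16 and Ebf1 0.36. Ebf1 was -0.11 with the block, -0.031 with block and GC correction and -0.10 to 0.47 over the libraries left out (negative without P-SSC 4) in graft BM-MSCs against P-SSCs, 0.20 with block and GC correction against BM-MSCs, and 0.023 and 0.24 with the block and with both in P-SSCs against BM-MSCs. In graft BM-MSCs against BM-MSCs, Prrx1 was -0.054 when centred on the median and -0.11 to 0.45 over the libraries left out (negative without graft BM-MSC 1 or 3), and Ebf2 was -1.98 to 2.39 (negative without BM-MSC 3 or graft BM-MSC 4). The difference in the Ebf2 share there ran from -1.56 to 2.77 points over the libraries left out, and the other shares kept their direction with the longest transcript and after GC correction. The cause of these changes was not tested. A fit of the low GC class alone, chosen after seeing the data, called 3 factors and 2040 genes in P-SSCs against BM-MSCs. Spearman correlations of the most similar genes were 0.81 to 0.98. In P-SSCs Foxc1 rested on 4 to 132 reads per library and Ebf3 on 4 to 43, which limits the precision of their fold changes.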
